A study of Caenorhabditis elegans with 2 samples.

Results

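ZK265.11, C18C4.17, CD4.18, T19C4.16 and M163.12 are genes of Caenorhabditis elegans that the annotation calls unclassified non-coding RNAs, a class with no role assigned in the files used. They were chosen by their peaks: each lies at a chromatin immunoprecipitation (ChIP-seq) peak of eGFP-tagged SNPC-4 among the 100 strongest peaks of the authors' optimal list, which was thresholded by the irreproducible discovery rate (IDR). Peak signal and rank therefore chose them, and are given below as a description with no test. They are 5 of 7761 unclassified non-coding RNA genes and 5 of 46890 annotated nuclear genes. Of the 100 strongest peaks, 44 had a summit within 300 bp of the 5′ end of an unclassified gene, and 11 of those 44 had no gene of another small RNA class as near. Small RNA classes here are tRNA, snoRNA, snRNA, SmY, spliced leader, miRNA and rRNA genes and the genes of the RNase P, RNase MRP and Y RNAs. Of the 11 peaks, 6 are on chromosome II and the other 5 are the peaks described here.

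The animals were L4 larvae, in the last stage before adulthood, of strain OP179, of mixed sex and used whole. Its genotype is unc-119(ed3) III; wgIs179, where wgIs179 is the transgene insertion for snpc-4 and unc-119(ed3) is a mutation that the strain carries too. There was 1 group of 2 samples, labelled biological replicates 1 and 2, and both carry the same alleles; the age of the animals is labelled unknown. The antibody label names snpc-4 while the protein is tagged with eGFP, and the labels do not name the promoter that drives the transgene or the state of the chromosomal snpc-4 gene. No input or untagged sample was used here, and the background at these genes is thus unknown. Whole animals were used, so a signal cannot be placed in a tissue.

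SNPC-4 is the worm relative of the largest subunit of SNAPc, the small nuclear RNA-activating protein complex. In vertebrates SNAPc binds a promoter element a short distance upstream of snRNA genes, and a TATA box beside that element is a feature of those snRNA-type genes that RNA polymerase III transcribes. RNA polymerase III ends transcription at short runs of T, and in worms SNPC-4 is also known from the genomic regions that encode piRNAs in the germline.

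The peaks at the 5 genes fell between rank 41 and rank 93 of the 381 peaks in the IDR list. Within 300 bp of the 5′ end, 5 of 5 genes had a summit in that list, against 1.44% of all unclassified non-coding RNA genes and 0.874% of all annotated genes; among the 100 strongest peaks the shares were 0.606% and 0.288%. The count of 5 is fixed by the way the genes were picked. The signal is the authors' peak score, on a scale that is not stated, and its median over the IDR list was 31.7. ZK265.11 had the highest value of the 5, 251, which is 7.91 times that median. C18C4.17 followed with 213 and CD4.18 with 197, at ranks 43 and 45. T19C4.16 had a signal of 128 at rank 62, and M163.12 had 66.8 at rank 93, 2.11 times the median of the list.

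At the limit of the rule, the peaks at ranks 99 and 100 had signals of 60.3 and 58.8, and those at ranks 101 and 102 had 57.6 and 55.7. Each of these 4 peaks lay at an unclassified gene together with another gene: C17C3.23 with the spliced leader gene sls-2.2, an unclassified gene with the tRNA gene Y105C5A.t2 and 21U-RNA genes, H27M09.7 with the snRNA gene H27M09.6, and T19C4.17 with the snoRNA gene T19C4.12. The protein-coding gene syp-4 also had its 5′ end within 300 bp of the summit at rank 101. The first peaks past the limit at an unclassified gene with no small RNA gene were those of C37C3.16 at rank 108 (signal 53.3) and LLC1.120 at rank 122 (44.2).

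**Figure D1:**
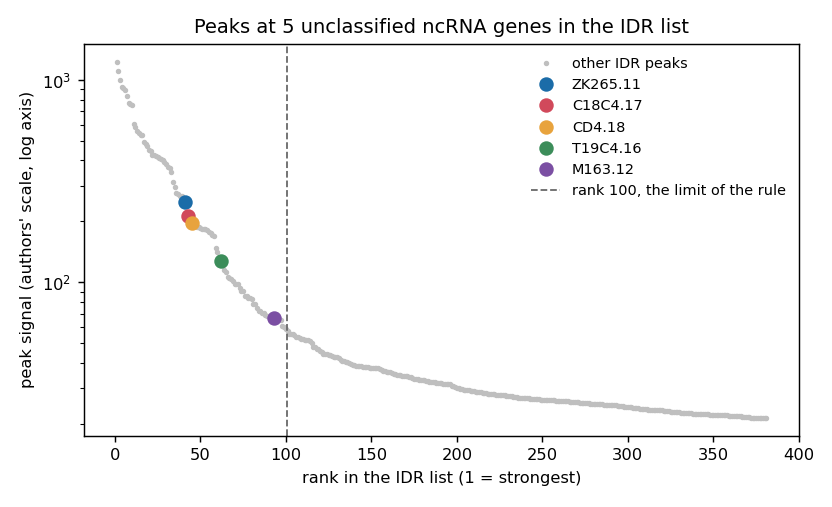
Peak signal on the authors' scale (log axis) against rank for all 381 peaks of the IDR list; grey points are the other peaks, coloured points the peaks at the 5 genes, and the dashed line is the rank limit of 100. ZK265.11, C18C4.17 and CD4.18 sit close together at ranks 41 to 45, T19C4.16 is at rank 62 and M163.12 is nearest the limit at rank 93.

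The peaks were seen in each replicate alone. In the list made from pooled replicates, whose 30000 peaks have no stated threshold, all 5 genes had the same summit and signal as in the IDR list (30.3% of unclassified genes and 23.7% of all genes had a summit there). All 5 also had a summit in the list of replicate 1, which holds 11042 peaks (12.6% and 13.6%), and in that of replicate 2, which holds 30000 (29.6% and 20.1%). Among the 381 strongest peaks of a replicate the count was again 5 of 5, against 1.57% and 0.938% in replicate 1 and 1.53% and 0.825% in replicate 2. Each gene had exactly 1 summit within 300 bp in every list. All of the 100 strongest IDR peaks had a match within 200 bp in both replicate lists. Presence in those lists thus came with the choice of the genes and is no separate support.

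ZK265.11 had a signal of 115 in replicate 1 and 134 in replicate 2, and ranked 41 in both. C18C4.17 had 109.5 and 103, at ranks 44 and 50. These genes were the most even of the 5, with means of 125 ± 13.2 and 106 ± 4.96 (SD, n = 2). CD4.18 had 119 in replicate 1 and 74.6 in replicate 2, at ranks 40 and 61. T19C4.16 was the other way round, with 36.9 in replicate 1 and 92.3 in replicate 2, at ranks 78 and 54. M163.12 had 48.1 in replicate 1 and 17.6 in replicate 2. Its rank was 63 in the first and 249 in the second, so replicate 2 taken alone would not place it among the 100 strongest.

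The ratio of the replicates was read against the other peaks. Over the 365 IDR peaks that each replicate list matched within 200 bp, replicate 1 divided by replicate 2 had a median of 0.634 and ran from 0.216 at the 5th percentile to 1.59 at the 95th. Over the 100 strongest peaks, the 5 genes included, the median was 0.878, with 0.384 and 1.60 at those percentiles. The ratio at M163.12, 2.72, lay above both ranges. CD4.18, at 1.60, was at their upper edge and T19C4.16, at 0.400, near the lower edge for the 100 strongest. ZK265.11, at 0.860, and C18C4.17, at 1.07, lay inside. The IDR signal was close to the sum of the replicate signals at all 5 genes, with ratios of 0.992 to 1.02 against a median of 1.01 over the 365 peaks.

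**Figure D2:**
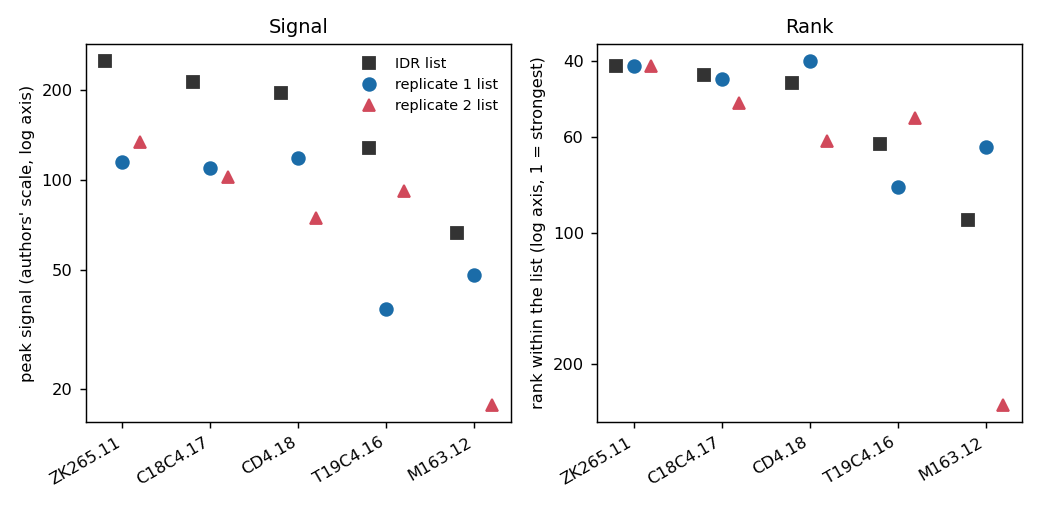
Peak signal (left, authors' scale, log axis) and rank within the list (right, log axis, strongest at the top) at the 5 genes in the IDR list (squares), replicate 1 (circles) and replicate 2 (triangles). ZK265.11 and C18C4.17 differ little between replicates, while M163.12 drops from rank 63 in replicate 1 to rank 249 in replicate 2.

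The summits lay just upstream of 4 of the 5 genes. Offsets are counted along the gene's strand from its first base, and a negative value is upstream. In the IDR list the offset was −29 bp at ZK265.11, −49 bp at C18C4.17, −54 bp at CD4.18 and −54 bp at T19C4.16. M163.12 was the exception, with its summit 17 bp inside the gene. The replicates kept this picture: the offsets in replicates 1 and 2 were −25 and −41 bp at ZK265.11, −55 and −40 bp at C18C4.17, −48 and −54 bp at CD4.18, −55 and −50 bp at T19C4.16, and 8 and 34 bp at M163.12. The replicate summits of a gene were 5 to 26 bp apart, against a median of 23 bp over the 365 peaks and 10 bp over the 100 strongest.

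The median offset of the 5 genes was −49 bp. It was −54.5 bp at the 28 snRNA genes with an IDR summit, −49 bp at 14 SL2 genes, −47 bp at 39 snoRNA genes and −16 bp at 37 tRNA genes. The other 107 unclassified genes with an IDR summit had a median of 98 bp downstream, and 31 of them had the summit upstream. Unlike the 5 genes, these 107 include genes whose peak also lies at a gene of another small RNA class. T19C4.17, for example, had the peak of the snoRNA gene T19C4.12 at 249 bp downstream of its own 5′ end. The 107 also include the unclassified genes CD4.19 and T19C4.11, described further on, whose summits are those of CD4.18 and T19C4.16. The 107 are thus not a like comparison, and the part of such shared peaks in their median was not tested. Chromosome II had 6 genes at peaks chosen in the same way (C17G10.14, F08G2.12, F08G2.13, W01D2.7, W01D2.8 and W01D2.9). Their summits were upstream in 6 of 6 cases, with a median of −67.5 bp. Outside chromosome II, 7 genes lay at such peaks. CD4.19 and T19C4.11, with summits 145 and 71 bp upstream, were not counted among the 5. On chromosome II, W01D2.7 and W01D2.9 shared the peak at rank 59 and both were counted, so these medians are not from like choices. These positions are descriptions, since nearness to the 5′ end was part of the rule.

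The peak at M163.12 had the commonest width in every list. Its width was 340 bp in the IDR list, 304 bp in replicate 1 and 330 bp in replicate 2, the commonest value of each. T19C4.16 had that width in replicate 1 too, at 304 bp, but 178 bp in replicate 2. In the IDR list 290 of 381 peaks had the commonest width, but only 13 of the 100 strongest. Nearly all peaks of the replicate lists had it, 10978 of 11042 in replicate 1 and 29931 of 30000 in replicate 2. The other 4 genes had narrower IDR peaks, of 209 bp at T19C4.16, 243 bp at C18C4.17, 268 bp at CD4.18 and 270 bp at ZK265.11.

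The 5 genes sit in different surroundings. ZK265.11 (WBGene00045370, chrI:8245547-8245622, minus strand, 76 bases) lies within a 3′ UTR exon of ceh-8, a homeobox gene, on the same strand. C18C4.17 (WBGene00219824, chrV:5576222-5576373, plus strand, 152 bases) lies outside protein-coding genes, 99 bp from klc-2, which encodes a kinesin light chain. CD4.18 (WBGene00235160, chrV:5587285-5587418, plus strand, 134 bases) lies in an intron of CD4.11 on the same strand. T19C4.16 (WBGene00196056, chrV:11176926-11177134, plus strand, 209 bases) lies in an intron of gpa-1, a G protein alpha subunit gene, on the opposite strand. M163.12 (WBGene00045117, chrX:14477545-14477622, plus strand, 78 bases) lies outside protein-coding genes, 1035 bp from the nearest, M163.5. Coordinates are on ce11. The lengths lay between percentiles 15.5 and 84.1 of the class, whose quartiles were 95, 140 and 165 bases.

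The peaks of ZK265.11, C18C4.17 and M163.12 had no other annotated 5′ end of any class within 300 bp of the summit. The peak of CD4.18 also lay 145 bp upstream of CD4.19, an unclassified gene of 132 bases that runs the other way; the 5′ ends of the pair are 199 bp apart, and which of them the peak belongs to cannot be told apart from the list. The peak of T19C4.16 also lay 71 bp upstream of T19C4.11 (WBGene00045169, 178 bases), which is nested inside T19C4.16 and starts 17 bp further on. Which of these nested genes the peak belongs to cannot be told from the list either. Upstream distances given for T19C4.16 depend on which start is used.

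C18C4.17, CD4.18 and M163.12 had the same letters in front of them. Their upstream sequences are shown because they carry the 7 letters TATATAA on the gene's strand, starting 32, 30 and 30 bases before the first base of the gene. Each line runs from 70 bases before the gene to its base 20, from the RefSeq genome sequence of ce11 on the plus strand; the first capitals mark the closest match to the word GTCGGCCG, described further on, and the second capitals mark TATATAA.
C18C4.17, chrV:5576152-5576241: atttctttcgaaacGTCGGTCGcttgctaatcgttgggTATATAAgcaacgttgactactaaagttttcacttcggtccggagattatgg
CD4.18, chrV:5587215-5587304: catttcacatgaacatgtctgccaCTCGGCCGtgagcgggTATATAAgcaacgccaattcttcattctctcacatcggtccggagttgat
M163.12, chrX:14477475-14477564: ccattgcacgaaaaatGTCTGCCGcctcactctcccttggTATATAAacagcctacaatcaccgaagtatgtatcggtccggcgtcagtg

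Between 40 and 11 bases before the gene on the same strand, TATATAA was present at 3 of the 5 genes. It was present at 28 of 7756 other unclassified genes (0.361%), at 2 of the 107 with an IDR summit (1.87%) and at 230 of 19973 protein-coding genes (1.15%). CD4.19, at the peak of CD4.18, is among the 2. Among snRNA genes TATATAA was present at 16 of 89 (18%), and at 7 of the 28 with an IDR summit. None of the snoRNA, SL2 or tRNA genes with an IDR summit had it there, nor did any of the 6 chromosome II genes, nor ZK265.11 or T19C4.16. These letters and the window were chosen after the sequences were seen, so the counts describe the 5 genes and test nothing.

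The same 3 genes shared stretches of their own sequence, at the start and at the end. They are shown whole because the shared parts sit near both ends of genes of different length. The capitals mark TCGGTCCGG near the 5′ end and CACCAACTTGACCGTTG near the 3′ end; the sequences are from RefSeq (ce11, plus strand).
C18C4.17, chrV:5576222-5576373: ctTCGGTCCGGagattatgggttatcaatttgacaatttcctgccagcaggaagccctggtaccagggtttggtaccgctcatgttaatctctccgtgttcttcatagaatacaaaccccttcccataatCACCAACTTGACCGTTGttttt
CD4.18, chrV:5587285-5587418: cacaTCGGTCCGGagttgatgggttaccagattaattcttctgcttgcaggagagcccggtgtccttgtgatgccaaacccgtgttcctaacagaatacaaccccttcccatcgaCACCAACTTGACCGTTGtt
M163.12, chrX:14477545-14477622: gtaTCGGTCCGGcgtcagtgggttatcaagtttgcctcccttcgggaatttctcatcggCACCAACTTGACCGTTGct

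The first stretch began at base 3 of C18C4.17, base 5 of CD4.18 and base 4 of M163.12. The stretch of 17 bases ended 5, 2 and 2 bases before the end of these genes. Of 29147 annotated genes shorter than 1 kb, searched with 20 bases to each side, 14 held the first stretch and 4 held the second; the 4 are these 3 and CD4.19. Over their whole length C18C4.17 and CD4.18 were identical at 110 of 158 aligned positions (69.6%), CD4.18 and M163.12 at 49.3% and C18C4.17 and M163.12 at 43.2%. Percentages of this size also came from a pair with no long shared run: ZK265.11 and M163.12 gave 49.4%, with at most 5 identical bases in a row. The longest shared runs were 19 bases for the first pair and 17 for the others, and no pair with ZK265.11 or T19C4.16 shared more than 8.

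In the minimum free energy fold of RNAfold, bases among the first 30 paired with bases among the last 30 in all 5 genes. There were 19 such pairs in CD4.18, 17 in C18C4.17 and 11 in M163.12, 8 in ZK265.11 and 6 in T19C4.16. M163.13 and M163.15, described further on, hold TCGGTCCGG and TATATAA but not the stretch of 17 bases, and had 17 and 5 such pairs. With them included, the numbers separate the holders of neither stretch from the other genes folded, although the 3 genes with both stretches had more pairs than ZK265.11 and T19C4.16. The predicted energies of CD4.18, C18C4.17, M163.12, ZK265.11 and T19C4.16 were −42.6, −45.2, −22.9, −14.7 and −69.9 kcal/mol in that order. They are predictions from sequence with no measurement of the RNA. A run of TTTT lay within 10 bases of the 3′ end, to either side, at C18C4.17, CD4.18 and M163.12 and not at ZK265.11 or T19C4.16. Such a run was as near at 1666 of 7756 other unclassified genes (21.5%), at 25.2% of those with an IDR summit and at 40.3% of protein-coding genes. Among bound genes of other classes it was as near at 35 of 37 tRNA genes (94.6%), at 48.7% of snoRNA, at 25% of snRNA and at 7.14% of SL2 genes.

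**Figure D3:**
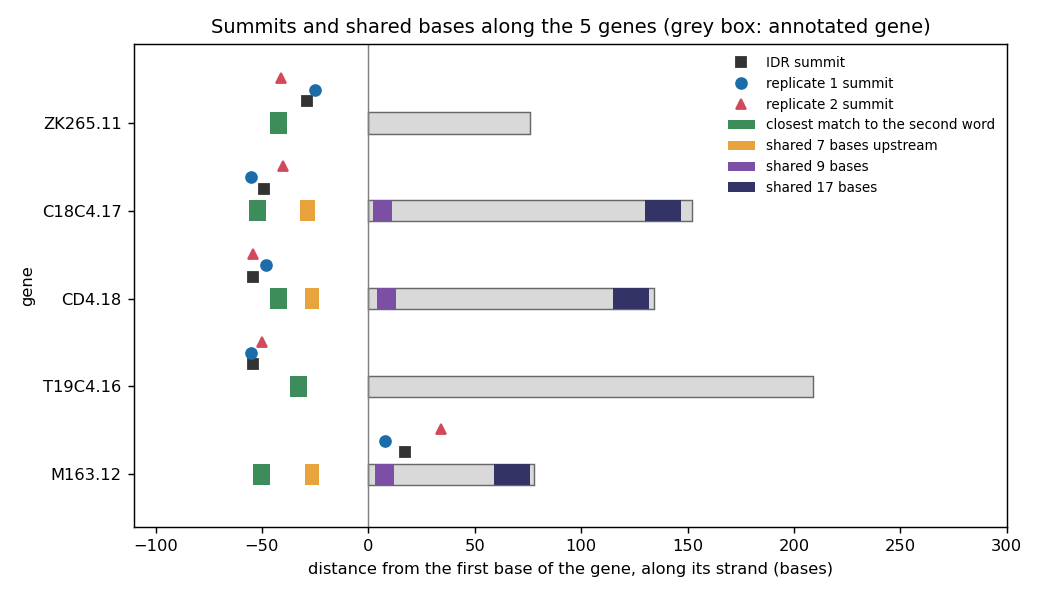
Summits and shared bases along the 5 genes, in bases from the first base of each gene; grey boxes are the annotated genes, and squares, circles and triangles are the summits in the IDR list, replicate 1 and replicate 2. Green boxes mark the closest match to the second learned word, orange boxes the shared 7 bases upstream, light and dark purple boxes the shared stretches of 9 and 17 bases; only C18C4.17, CD4.18 and M163.12 have the last 3, and only M163.12 has its summits inside the gene. The green box at ZK265.11 has 2 mismatches, against 1 at the other genes, and is the first of 3 equal matches.

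The stretch TCGGTCCGG was found between 20 bases before and 30 bases after the 5′ end of 11 genes in the genome, under 4 different annotated classes. Beside the 3 genes above they are the unclassified genes CD4.17, CD4.19, F35E12.11, M163.15 and W03G11.8, the snRNA gene M163.13, the snoRNA gene M163.14 and the miRNA gene mir-2214. Of the 8 others, 5 had an IDR summit within 300 bp; CD4.19 shares that of CD4.18. The signal was 535 at mir-2214 (rank 16; 344 and 190 in replicates 1 and 2) and 365 at M163.13, both stronger than at any of the 5 genes. TATATAA stood upstream of 8 of the 11, starting 31 bases before mir-2214 and 30 before M163.13. F35E12.11, M163.15 and W03G11.8 had no IDR summit, and in F35E12.11 the stretch and TATATAA both began further upstream of the annotated 5′ end than in the other genes that hold both. The group was put together by its letters after they had been seen.

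The shorter core GGTCCGG, in the same window, was also present at 4 of the 6 chromosome II genes (F08G2.12, F08G2.13, W01D2.7 and W01D2.8), at 11 of 7756 other unclassified genes (0.142%) and at 7 of the 107 with an IDR summit (6.54%). CD4.19 is among the 7. In protein-coding genes the share was 0.0300%.

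M163.12 belongs to a row of 4 small RNA genes on the plus strand of chromosome X that spans 1661 bp. The snRNA gene M163.13 begins 678 bp before M163.12, the unclassified gene M163.15 349 bp before it and the snoRNA gene M163.14 919 bp after it. M163.13 had the strongest of the 3 IDR peaks in the row, with a signal of 365 at rank 32 and the summit 48 bp upstream (181 and 186 in replicates 1 and 2). M163.14 had 169.7 at rank 58, with the summit 55 bp upstream (113 and 52.7). M163.12, between them, had 66.8, and M163.15 had no summit within 300 bp in any of the 4 lists. The row thus held strong peaks at its ends and a weak one, or none, at the genes in the middle.

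The upstream sequences of the first 3 genes in the row were alike, and those of M163.13 and M163.15 are shown for comparison with that of M163.12 above, with the same capitals, over the same bases and from the same source.
M163.13, chrX:14476797-14476886: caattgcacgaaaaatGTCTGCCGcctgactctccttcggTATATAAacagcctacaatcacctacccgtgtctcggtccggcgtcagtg
M163.15, chrX:14477126-14477215: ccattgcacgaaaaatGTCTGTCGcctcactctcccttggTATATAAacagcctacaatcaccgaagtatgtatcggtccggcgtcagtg

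Over the 120 bases upstream, M163.12 and M163.15 were identical at 114 of 121 aligned positions (94.2%), and M163.12 and M163.13 at 98 of 129 (76.0%). The 3 genes hold TATATAA at the same place, 30 bases before the gene. In a local search with blastn, the gene M163.12 matched the sequence at M163.15 at 94.7% of 76 bases and that at M163.13 at 88.5% of 78 bases. Aligned over their whole length, M163.12 and M163.15 were identical at 69 of 79 positions (87.3%). For M163.12 and M163.13 it was 70 of 80 (87.5%), so over the whole genes neither was clearly the closer. The 201 bases around the summit of M163.12 had a second copy at M163.15, with 94.8% identity over 174 bases. No source used here says how reads from such repeats were placed. Its part in the low signal, the commonest width and the position of the summit at M163.12, and in the lack of a summit at M163.15, was not tested.

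C18C4.17 and CD4.18 are neighbours too, with 5′ ends 11063 bp apart on chromosome V and the same orientation. CD4.19 is a near copy of CD4.18, with 96.3% identity over 134 bases, while the 120 bases upstream of the pair were identical at 68.2% of aligned positions. Part of the summit window of CD4.18 matched the start of CD4.19 and bases upstream of it, at 87.8% over 115 bases. How reads from this pair were placed is not stated, and its part in their peak was not tested. CD4.19 also carries TATATAA, 30 bases upstream. CD4.17 begins 794 bp after CD4.18 and had a much weaker IDR peak, with a signal of 29.7 at rank 202 and the summit 35 bp upstream (20.2 and 10.6 in replicates 1 and 2). It holds TCGGTCCGG and, 54 bases upstream, an exact GTCGGCCG, which none of the 5 genes has, but not TATATAA. M163.14 lacks TATATAA as well, with a signal of 169.7. C18C4.17 itself had no copy at 90% identity over 80% of its length.

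**Figure D4:**
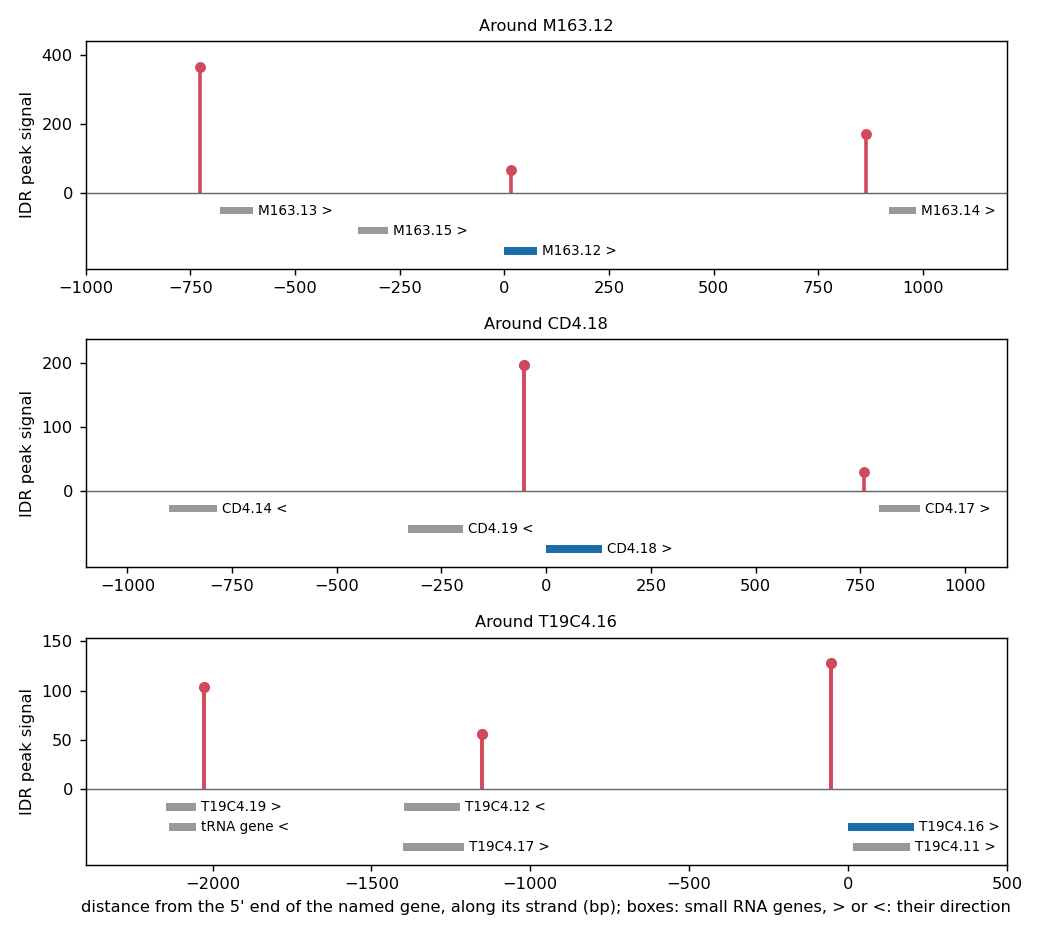
IDR peak signal (red lines and points, authors' scale) around M163.12, CD4.18 and T19C4.16, against distance in bp from the 5′ end of each along its strand; boxes are small RNA genes with their direction, the named gene in blue. M163.12 lies between the stronger peaks of M163.13 (365) and M163.14 (169.7), with no peak at M163.15; CD4.18 (197) shares its peak with CD4.19 and exceeds CD4.17 (29.7); and 3 peaks lie around T19C4.16.

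T19C4.16 differed from these 3 genes: it had no TATATAA, no shared stretch and no run of T within 10 bases of its 3′ end, although a run began 15 bases past it. Its sequence is shown because the 178 bases in capitals, which are the nested gene T19C4.11, were identical to the whole annotated snoRNA gene T19C4.12 (178 of 178 aligned bases). The sequence is from RefSeq (ce11, plus strand).
T19C4.16, chrV:11176926-11177134: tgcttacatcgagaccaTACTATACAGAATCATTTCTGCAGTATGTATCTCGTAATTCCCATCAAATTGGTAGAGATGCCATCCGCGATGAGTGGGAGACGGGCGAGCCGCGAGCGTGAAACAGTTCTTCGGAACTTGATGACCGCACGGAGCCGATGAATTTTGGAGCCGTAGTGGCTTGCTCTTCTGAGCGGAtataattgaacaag

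T19C4.12 (WBGene00045170, to which the Ensembl annotation also gives the name T19C4.11) lies in the same host gene, gpa-1, on the other strand, with its 5′ end 1220 bp away. The whole of T19C4.16 matched there at 99.0% of 209 bases, while the 120 bases upstream of the nested gene and of T19C4.12 were identical at 98 of 128 aligned positions (76.6%). The peak at T19C4.12 was weaker than that at T19C4.16, with an IDR signal of 55.7 at rank 102 against 128 at rank 62. In replicate 1 the values were 19.9 and 36.9 and in replicate 2 they were 37.6 and 92.3, so T19C4.16 was the higher in both. Another peak in gpa-1 lay at the tRNA gene T19C4.t1, with a signal of 104 at rank 68.

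In all, T19C4.16 had 5 copies elsewhere in the genome, each at an annotated snoRNA gene in the same orientation, and 5 of those 5 genes had an IDR summit upstream of the 5′ end. Beside T19C4.12 they were F43A11.8 (97% identity; signal 98.2, summit 62 bp upstream), Y67A10A.14 (91.0%; 188, 71 bp), F59C6.15 (90.9%; 447, 91 bp) and F25H2.15 (90.2%; 274, 51 bp). The signal of T19C4.16 fell among these values, above F43A11.8 and T19C4.12 and below the others. Among all 344 snoRNA genes 39 had an IDR summit (11.3%). The 201 bases around the summit of T19C4.16, most of them upstream of the gene, had no copy. The part of the shared gene sequence in the signal at T19C4.16 was not tested. Its upstream sequence is shown for the match to GTCGGCCG in capitals (RefSeq, ce11, plus strand).
T19C4.16, chrV:11176856-11176945: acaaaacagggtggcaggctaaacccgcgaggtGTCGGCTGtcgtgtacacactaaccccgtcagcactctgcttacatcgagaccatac

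ZK265.11, the gene with the strongest peak, shared no long run with the other 4. It had no copy elsewhere, nor did the 201 bases around its summit. It was the only one of the 5 with TGATGA in its first 20 bases and CTGA in its last 20, starting at bases 13 and 68 of 76. That arrangement was found in 4 of 7756 other unclassified genes (0.0516%) and in 14 of 344 annotated snoRNA genes (4.07%). These are the letters of the boxes C and D that mark one class of snoRNA in animals; a match of letters is a description and does not class the gene. No sequence of ZK265.11 is printed.

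The 5 upstream regions were compared with the words commonest at the other peaks. From 376 IDR peaks, without those of the 5 genes, the 3 words of 8 bases most enriched within 100 bp of the summit over flanks 1000 bp away were taken, on both strands. GCGGAACC was at 70 of the 376 peaks (18.6%, against 0.665% of flanks), CGGCCGAC at 56 (14.9%, 0.798%) and CGCGCCGC at 31 (8.24%, 0.399%). From 250 bases before to 50 after the 5′ end, 0 of 5 genes held any of the 3 words. In that window GCGGAACC was at 23.6% of snRNA promoters, at 0.350% of protein-coding ones and at 0.297% of those of other unclassified genes; for CGGCCGAC the shares were 0%, 0.330% and 0.490%, and for CGCGCCGC 3.37%, 0.496% and 0.645%.

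Near matches to the second word were present. The search with mismatches was made for this word alone and was not part of the plan, which held exact words only. The counts of near matches thus describe the 5 genes and test nothing. In the 100 bases before the gene, the word stood as GTCGGCCG at 10 bound snoRNA genes and in reverse at 0. It stood at 0 bound snRNA and 0 bound SL2 genes in either orientation. Read as GTCGGCCG, it had a match with 1 mismatch in those 100 bases at C18C4.17, CD4.18, T19C4.16 and M163.12. These matches started 56, 46, 37 and 54 bases upstream. At ZK265.11 the closest matches had 2 mismatches. A match with at most 1 mismatch was present at 4 of 5 genes, at 117 of 7750 other unclassified genes (1.51%) and at 12 of the 107 with an IDR summit (11.2%). These 12 include CD4.19, and T19C4.11 with the match of T19C4.16. Among bound genes of other classes the share was 61.5% of snoRNA (24 of 39), 21.4% of snRNA (6 of 28), 7.14% of SL2 and 2.70% of tRNA genes, and it was 0.601% of protein-coding genes. The 6 letters TATAAA, on both strands, were within the larger window at CD4.18, M163.12 and ZK265.11, and also at 25.5% of other unclassified, 30.3% of snRNA and 37.9% of protein-coding promoters.

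The upstream regions most like those of the 5 genes were sought among 466 genes of the snoRNA, snRNA, SL2 and SmY classes and those of the RNase P, RNase MRP and Y RNAs, by the number of words of 8 bases shared in the 120 bases before the gene; the median over the 466 was 0. M163.12 shared 42 of 113 words with M163.13, 10 with R07E5.16 (WBGene00014484, an snRNA gene with a signal of 193) and 9 with the snoRNA gene F58D5.12. T19C4.16 shared 28 of 112 with T19C4.12, 13 with F43A11.8 and 12 with the snoRNA gene T21F2.3, which had no IDR summit. CD4.18 shared 8 with the snRNA gene F54D8.7 (signal 471), 6 with M163.13 and 5 with the snoRNA gene C06A1.8. C18C4.17 shared 5 with F54D8.7 and 4 each with the snoRNA genes C52G5.13 and T23G11.12. The snoRNA genes F58D5.12, C06A1.8, C52G5.13 and T23G11.12 had no IDR summit. ZK265.11 shared 8 with smy-1, 6 with smy-12 and 5 with the snoRNA gene Y37E3.20 (signal 835); smy-1 and smy-12 are SmY genes, whose RNAs take part in trans-splicing, and neither had an IDR summit. M163.12 and T19C4.16 thus shared 42 and 28 words with a neighbour, and the other 3 genes at most 8 with any candidate.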

How the data were processed

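Peak lists of eGFP-tagged SNPC-4 ChIP-seq in L4 larvae were analysed. The lists deposited by the authors hold, per peak, its signal, the −log10 of its q-value and its summit. The −log10 of the q-value was tied within each list at the 5 genes (3.16, 3.72 and 3.13 in the IDR list and replicates 1 and 2) and was not used. The labels name the builds ce10 and ce11, and the ce11 lists were used. For the aligner, the peak caller, the IDR threshold and the scale of the signal, the sources used here give nothing, so the signal deposited by the authors only ranks and describes peaks. The files give no read counts, so depth is unknown and no depth-based interval was computed. No test was made, since the genes were picked on the same signal and there was 1 group.

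Genes came from Ensembl release 115 of WBcel235, the sequence of ce11, with names from RefSeq; the 6 nuclear chromosomes were used. A gene was given the strongest summit within 300 bp of its 5′ end. The genes named are the 5, all others at their summits, their hosts, those at the rank limit and the 3 most alike upstream of each; small RNA genes around them, copies and holders of the shared letters were named after their values were seen. The genes, lists and rules were chosen with earlier results of these data known. Copies were sought with blastn 2.17.0 (at least 90% identity over at least 80% of the length), folds with RNAfold 2.7.2, and alignments were global (Biopython 1.88, Python 3.11.15, pandas 2.3.3, numpy 2.4.6; figures by matplotlib 3.10.9). Assignment of summits and the word search were tested on simulated data.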

Additional observations from a re-analysis of the deposited data

How the results depend on the processing

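The count of 5 genes with a summit was the same under all 7 alternatives. These were windows of 150 and 1000 bp, an overlap of the interval with the gene and the upper 50% of the IDR list. The others were the pooled list and each replicate alone. The window of 1000 bp, the upper 50% and the pooled list could not give fewer. The rule had fixed those summits, and the pooled list holds the same ones. The median offset, −49 bp, was −41 to −48 bp when either replicate was left out. The words GCGGAACC, CGGCCGAC and CGCGCCGC were at 0 genes in every window tried. TATAAA was at 3 genes in the main window, at 1 within 100 bp of the summit and at 1 in the 100 bases before the gene; the cause was not tested. A T run was at 3 genes within 10 bases of the 3′ end and at 4 within 20, a width added after seeing the data. Of 20 alternative ranks and 20 offsets, 3 of each moved by more than the replicate spread, all when 1 replicate was left out. None changed sign. For signal 8 of 20 moved. The settings with the nearest summit or the pooled list could not move any value. Each gene had 1 summit, and the pooled list holds the same ones, so only leaving out a replicate could change a value. The IDR signal is close to the sum of the replicates, so leaving 1 out lowers it by construction. CD4.18 and the most even genes, ZK265.11 and C18C4.17, then count as moved both times, which says nothing about their stability. Replicate 2 alone put M163.12 at rank 249. No paired analysis was possible because there was 1 group and no test. There were 2 replicates and the depth is unknown, so no counting error could be given.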
